A study of Sus scrofa with 8 samples.

Results

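The 10 genes described here belong to the YAP and TEAD arm of the Hippo pathway: the coactivators YAP1 and WWTR1 (also called TAZ), the DNA-binding partners TEAD1, TEAD2, TEAD3 and TEAD4, the inhibitory kinases LATS1 and LATS2, and the genes CYR61 (also called CCN1) and AMOTL2, which YAP is known to activate. They were chosen by name, and each matched 1 of the 31014 genes in the deposited count table. Messenger RNA was measured by RNA sequencing in heart tissue of wild-type miniature pigs, 3 libraries labelled vehicle and 5 labelled doxorubicin. Doxorubicin is an anthracycline used against cancer that is known to injure the heart, and the comparison asks how the heart transcriptome differed after it. The sources used here give no dose, schedule, age, sex or heart region. They also do not state that each library is from its own animal, so the p-values cover the spread between libraries, which may be technical.

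In the Hippo pathway, the kinases STK3 and STK4 with the scaffold SAV1 activate LATS1 and LATS2, which phosphorylate YAP1 and WWTR1 and so keep them out of the nucleus or mark them for degradation. Unphosphorylated YAP1 and WWTR1 enter the nucleus and bind TEAD proteins, since neither binds DNA by itself. In heart the pathway is known for limiting cardiomyocyte proliferation, and in fibroblasts it responds to a stiff matrix. LATS2 and AMOTL2 are both targets and inhibitors of YAP, which makes them negative feedback genes. Activity of YAP1 and WWTR1 is set largely by phosphorylation and location of the proteins, which counts of RNA do not measure.

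Library totals ran from 16105242 to 18267178 counts. Doxorubicin 5 was the library least like its group (mean correlation 0.912 in log2 CPM, where the other 4 doxorubicin libraries had 0.941 to 0.956), and values without it are given where they change the call of a gene named here. Markers fitted the tissue label: the cardiomyocyte genes TNNT2 and ACTN2 were at 2452 and 4581 CPM (counts scaled to one library size, with TMM factors) on average in vehicle. The summed level of 8 cardiomyocyte markers was 32206 to 34152 CPM in vehicle and 17822 to 31294 CPM after doxorubicin. Of the 8, RYR2 and PLN passed the test, both lower, which is 25%. Of all tested genes 11.3% passed as lower and 24.9% in either direction. TNNT2 alone had a positive log2 fold change, with 3803 CPM after doxorubicin, and did not pass. Summed markers of activated fibroblasts (POSTN, CTHRC1, FAP, COMP, COL8A1 and MEOX1) were 47.1 to 59.7 CPM in vehicle and 127 to 5374 CPM after doxorubicin, highest in doxorubicin 5. Of the 6, 5 passed, all higher, where 13.6% of all tested genes passed as higher. COMP had no read in the vehicle libraries. In bulk tissue, more cells of a type and more RNA per cell cannot be told apart.

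None of the 10 members passed an adjusted p of 0.05 (edgeR's quasi-likelihood test, adjusted over 14938 tested genes), while 24.9% of all tested genes did. At an unadjusted p under 0.05 there were 4 of 10 members (TEAD1, TEAD3, LATS1 and LATS2), against 40.8% of all tested genes. Libraries of both groups did not overlap for 5 members, YAP1, TEAD1 and LATS1 lower and LATS2 and AMOTL2 higher after doxorubicin, against 34.9% of all tested genes. With 10 genes, nothing particular to the members is read from these counts. The median log2 fold change was 0.26 over the members and 0.020 over all tested genes. All 10 members passed the filter on low counts, with 111 to 4173 reads per library. Other methods gave other counts: DESeq2 called 2 members (TEAD1 lower, LATS2 higher; 33.1% of genes called) and limma voom called 7 (54.1% of genes called).

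**Figure D1:**
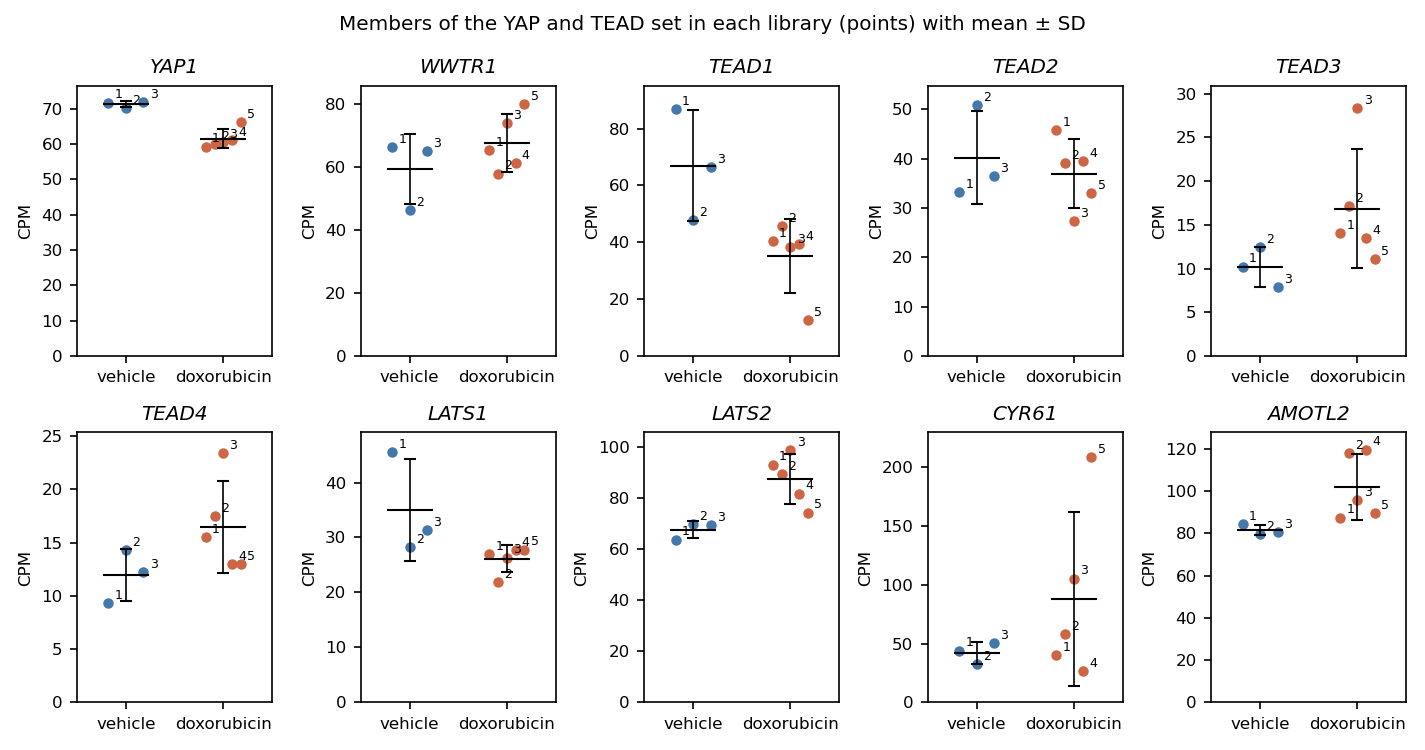
CPM of each member in the 3 vehicle and 5 doxorubicin libraries, one panel per gene on a linear axis from 0. Points are libraries with their replicate number, and the bar and whiskers are mean ± SD. YAP1 is nearly flat within each group, whereas CYR61 runs from 26.6 to 209 CPM after doxorubicin and TEAD1 is lowest in doxorubicin 5.

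The coactivators had small differences. YAP1, which lies on chromosome 9 at 32811629 to 32924926 (plus strand, Sscrofa11.1), was at 71.8, 70.3 and 71.8 CPM in vehicle 1 to 3. After doxorubicin it was at 59.3, 60.1, 60.7, 61.2 and 66.2 CPM in libraries 1 to 5. All doxorubicin libraries were below all vehicle libraries, and replicates lay close together: the SD of log2 CPM among the doxorubicin libraries was 0.062, lower than for all but 0.589% of tested genes. The fold was 0.862 (95% interval 0.718 to 1.04; adjusted p = 0.202), and with library size only, which leaves out the TMM factors, its log2 fold change turned from −0.21 to 0.14. WWTR1 (chromosome 13, 89742980 to 89889547, minus strand), a paralog of YAP1, was at 66.2, 46.4 and 65.1 CPM in vehicle. The doxorubicin values were 65.4, 57.9, 74.0, 61.1 and 79.9 CPM, and the groups overlapped. Its fold was 1.14 (95% interval 0.872 to 1.50; adjusted p = 0.435), and its sign turned with voom (log2 fold change −0.034).

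Per kilobase of gene model, WWTR1 and YAP1 had similar levels, and their balance differed between the groups. Within a library this ratio does not depend on the scaling between libraries. WWTR1 had 0.910, 0.652 and 0.895 times the reads per kb of YAP1 in vehicle 1 to 3. After doxorubicin the ratio was 1.09, 0.951, 1.20, 0.986 and 1.19, above every vehicle value. The means were 0.819 ± 0.145 and 1.08 ± 0.116 (SD, n = 3 and n = 5), given as a description with no test. YAP1 and WWTR1 leaned in opposite directions in CPM, which favours such a gap. How often ratios of other gene pairs leave no overlap was not counted.

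Among the TEAD genes, which all bind the same DNA element and differ in where they are expressed, TEAD1 had the lowest fold and TEAD3 the highest. TEAD1 (chromosome 2, 46396490 to 46670619, minus strand), the member of the family best known in heart muscle, was at 86.7, 47.8 and 66.3 CPM in vehicle 1 to 3. It was at 40.4, 45.6, 38.4, 39.4 and 12.6 CPM in doxorubicin 1 to 5. Every doxorubicin library was below every vehicle library, although vehicle 2 lay near doxorubicin 2. The fold was 0.527 (95% interval 0.302 to 0.919) with an adjusted p of 0.0836. Without vehicle 1 the fold was 0.617 (adjusted p = 0.285), where 4.19% of tested genes passed. Of the 8 fits that leave out 1 library, TEAD1 passed in 1. That was the fit without doxorubicin 5, with a fold of 0.613 and an adjusted p of 0.0187, where 32.3% of tested genes passed. The remaining 4 doxorubicin libraries were at 41.0 ± 3.18 CPM (SD, n = 4). Summed cardiomyocyte markers were 20954 CPM in doxorubicin 5 and lowest, at 17822 CPM, in doxorubicin 3. TEAD1 in doxorubicin 3 was close to libraries 1 and 4. MYL2 weighed most in this sum and, like TNNT2 and TNNI3, was lowest of the doxorubicin libraries in doxorubicin 3. ACTN2, MYBPC3, RYR2, PLN and TTN were lowest in doxorubicin 5, as TEAD1 was. The part of these markers in the TEAD1 difference was not tested. The lncRNA LOC110259298 overlaps the TEAD1 locus by 3242 bases on the other strand and had 140 to 371 reads per library. Overlaps of other members with genes on the opposite strand were 4 bases for YAP1 and 13 for TEAD2 (with CD37), and pseudogenes of at most 2 and 14 reads for WWTR1 and TEAD3.

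TEAD2 (chromosome 6, 54448183 to 54462325, minus strand), known mainly from embryonic tissue, was at 33.3, 51.0 and 36.5 CPM in vehicle. It was at 45.8, 39.2, 27.4, 39.5 and 33.1 CPM after doxorubicin, so the groups overlapped widely. The fold was 0.919 (95% interval 0.670 to 1.26; adjusted p = 0.684). Its log2 fold change of −0.12 turned to 0.23 with library size only, to 0.050 with voom and to 0.082 without vehicle 2. With the gene density trend taken out of each library it became −0.69 and passed (adjusted p = 0.0405). In that fit 19.3% of all tested genes passed. The TEAD2 locus had 70 protein-coding genes within 500 kb, and the other 9 members had 3 to 18.

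TEAD3 and TEAD4 had higher means after doxorubicin, led by doxorubicin 3. TEAD3 (chromosome 7, 31337890 to 31351452, minus strand) had 10.2, 12.5 and 7.89 CPM in vehicle, against 14.1, 17.1, 28.4, 13.5 and 11.1 CPM after doxorubicin. Only doxorubicin 5 fell within the vehicle range. The fold was 1.65 (95% interval 1.02 to 2.68; adjusted p = 0.113), and without doxorubicin 5 it was 1.80 (adjusted p = 0.0469). Without doxorubicin 3 it was 1.37 (adjusted p = 0.182) and without vehicle 3 it was 1.48 (adjusted p = 0.319). TEAD4 (chromosome 5, 67130392 to 67167579, minus strand), known from the placenta and from muscle regeneration, was at 9.36, 14.3 and 12.2 CPM in vehicle. It was at 15.6, 17.5, 23.4, 13.0 and 13.0 CPM after doxorubicin, with libraries 4 and 5 inside the vehicle range. Its fold was 1.38 (95% interval 0.950 to 2.00; adjusted p = 0.174).

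Because the TEAD genes lean in different directions, their make-up was compared within each library, in reads per kb of the gene model. TEAD1 held 21.9%, 9.69% and 17.0% of TEAD reads per kb in vehicle 1 to 3. It held 8.32%, 9.06%, 6.56%, 9.13% and 3.53% in doxorubicin 1 to 5, all below the vehicle values. TEAD3 held 22.3%, 21.9% and 17.4% in vehicle and 25.1%, 29.5%, 41.9%, 27.0% and 26.9% after doxorubicin, all above. TEAD2 went from 41.8% ± 4.30 to 36.0% ± 8.97 and TEAD4 from 21.4% ± 2.99 to 26.6% ± 2.98 (SD, n = 3 and n = 5), and for both the groups overlapped. The 4 genes summed to 37.8 ± 5.09 CPM per kb in vehicle and 41.9 ± 7.58 CPM per kb after doxorubicin, a difference smaller than either SD. The ratio of TEAD1 to TEAD4 was 0.784 ± 0.392 in vehicle and 0.283 ± 0.110 after doxorubicin, without overlap. The gap was narrow, with vehicle 2 at 0.436 and doxorubicin 4 at 0.397, and opposite leanings of TEAD1 and TEAD4 in CPM favour it. These values are a description with no test. They rest on gene models of very different length, 11289 bases for TEAD1 against 2527, 1305 and 1473 bases for TEAD2, TEAD3 and TEAD4, and how complete each model is was not tested.

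**Figure D2:**
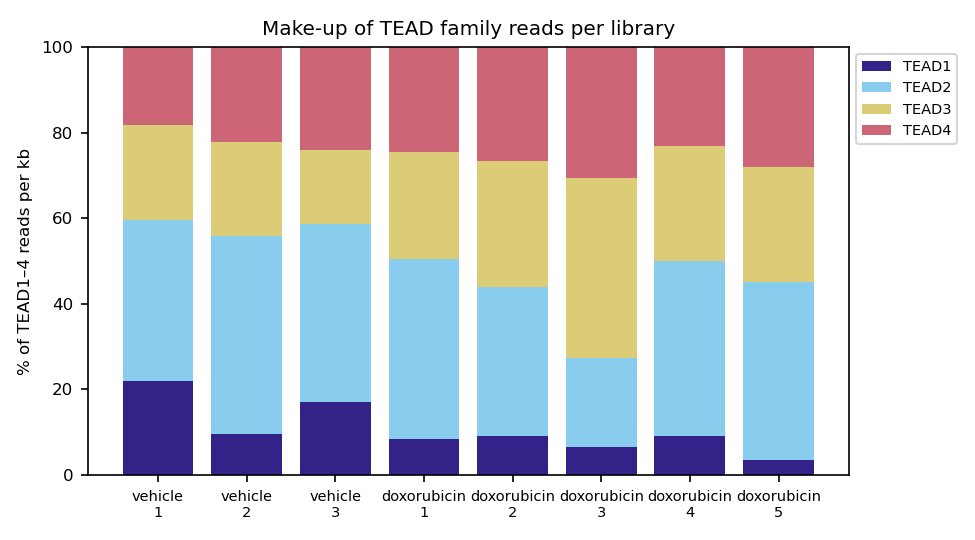
Stacked bars give the share of TEAD1, TEAD2, TEAD3 and TEAD4 in their summed reads per kb, in percent, for each of the 8 libraries. The TEAD1 segment is between 9.69% and 21.9% in vehicle and between 3.53% and 9.13% after doxorubicin, and TEAD3 reaches 41.9% in doxorubicin 3.

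The LATS kinases, which inhibit YAP1 and WWTR1, leaned in opposite directions. LATS1 (chromosome 1, 16274955 to 16320980, plus strand) had 45.6, 28.2 and 31.3 CPM in vehicle, against 27.0, 21.9, 26.3, 27.8 and 27.8 CPM after doxorubicin. The groups did not overlap, but vehicle 2 lay within 1 CPM of the highest doxorubicin library. Its fold was 0.747 (95% interval 0.566 to 0.985; adjusted p = 0.107). Without vehicle 1, its highest library, the LATS1 fold was 0.878 (adjusted p = 0.460), and with library size only it was 0.956 (adjusted p = 0.814). LATS2 (chromosome 11, 1225523 to 1265970, minus strand) was at 63.8, 70.0 and 69.4 CPM in vehicle. It was at 93.2, 89.4, 99.0, 81.9 and 74.4 CPM after doxorubicin, every library above vehicle. The fold was 1.29 (95% interval 1.04 to 1.61), with an adjusted p of 0.0829. Without doxorubicin 5 the LATS2 fold was 1.34 and the adjusted p 0.0247. Without vehicle 1 the LATS2 fold was 1.25 (adjusted p = 0.2375), and LATS2 passed in 1 of the 8 fits that leave out 1 library. Within libraries LATS2 had 1.96, 3.48 and 3.11 times the reads per kb of LATS1 in vehicle. After doxorubicin the ratio was 4.84, 5.72, 5.27, 4.14 and 3.75, above every vehicle value (2.85 ± 0.792 against 4.75 ± 0.805, SD, n = 3 and n = 5, with no test). As for WWTR1 and YAP1, the opposite leanings favour such a gap.

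Of the 2 target genes, AMOTL2 differed little among libraries and CYR61 varied widely. AMOTL2 (chromosome 13, 75490936 to 75507360, minus strand), a junction protein that binds YAP and holds it in the cytoplasm, was at 84.5, 79.9 and 80.8 CPM in vehicle. It was at 87.5, 118, 95.8, 120 and 89.6 CPM after doxorubicin, all above vehicle. Its fold was 1.25 (95% interval 0.975 to 1.60; adjusted p = 0.159), and it passed with library size only (log2 fold change 0.68, adjusted p = 0.0135) and without the density trend (0.53, adjusted p = 0.0445).

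CYR61 (chromosome 4, 130392404 to 130395179, minus strand), a secreted matricellular protein and a standard readout of YAP activity, was at 44.1, 32.2 and 50.3 CPM in vehicle. It was at 40.3, 58.2, 105, 26.6 and 209 CPM in doxorubicin 1 to 5. Doxorubicin 3 and 5 were well above vehicle, doxorubicin 2 was just above it, doxorubicin 1 was inside the vehicle range and doxorubicin 4 was below it. The SD of log2 CPM among doxorubicin libraries was 1.17, against a median of 0.38 over all tested genes. The fold was 2.08 (95% interval 0.813 to 5.33; adjusted p = 0.216), and without doxorubicin 5 it was 1.37 (adjusted p = 0.452). Its fold was 1.06 with voom, which gives libraries weights (adjusted p = 0.834). The CYR61 locus lies wholly within the bounds of ZNHIT6 on the other strand, which had 241 to 795 reads. The sources used here do not say whether counting used the strand, so reads of these genes may not be separated.

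In the doxorubicin libraries CYR61 had the same order as the summed activated fibroblast markers. From the lowest to the highest, doxorubicin 4, 1, 2, 3 and 5 had 127, 299, 468, 1416 and 5374 CPM of these markers. POSTN weighed most in doxorubicin 3 and 5, with 971 and 4544 CPM. POSTN, CTHRC1, FAP and COL8A1 each had this order, and COMP and MEOX1 did not. Vehicle libraries had 47.1 to 59.7 CPM of the markers and CYR61 levels above that of doxorubicin 4 and around that of doxorubicin 1. Summed general fibroblast markers had the identical order, with 2566, 2748, 4521, 6497 and 26876 CPM, against 1306 to 1521 CPM in vehicle. Collagens weighed most in this sum, with COL1A1, COL1A2 and COL3A1 at 6607, 7563 and 11487 CPM in doxorubicin 5. Of the 8 markers 3 passed as higher and 1, PDGFRA, as lower (42.5 ± 5.91 to 19.4 ± 8.66 CPM, adjusted p = 0.0355). DCN was at 369 and 359 CPM. Markers of macrophages (139 to 187 CPM in vehicle and 242 to 726 CPM after doxorubicin; 6 of 8 passed, all higher) and of lymphocytes (5.36 to 9.46 and 15.4 to 33.5 CPM; 5 of 5 tested passed, all higher) were also above vehicle, in other orders. Of all tested genes 13.6% passed as higher and 11.3% as lower. Summed endothelial markers had exactly the reverse order, as had CDH5, VWF, KDR and TEK each, whereas PECAM1, TIE1, CLDN5 and EGFL7 did not. Of these 8 markers, 4 had a positive and 4 a negative log2 fold change. The only 1 that passed was EGFL7, as higher (fold 1.91, adjusted p = 0.0127). The endothelial sums were 1580, 1486, 1292, 922 and 564 CPM in doxorubicin 4, 1, 2, 3 and 5, against 1208 to 1549 CPM in vehicle. The order is thus not particular to fibroblast markers. The part of any of these cells in the CYR61 values was not tested.

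**Figure D3:**
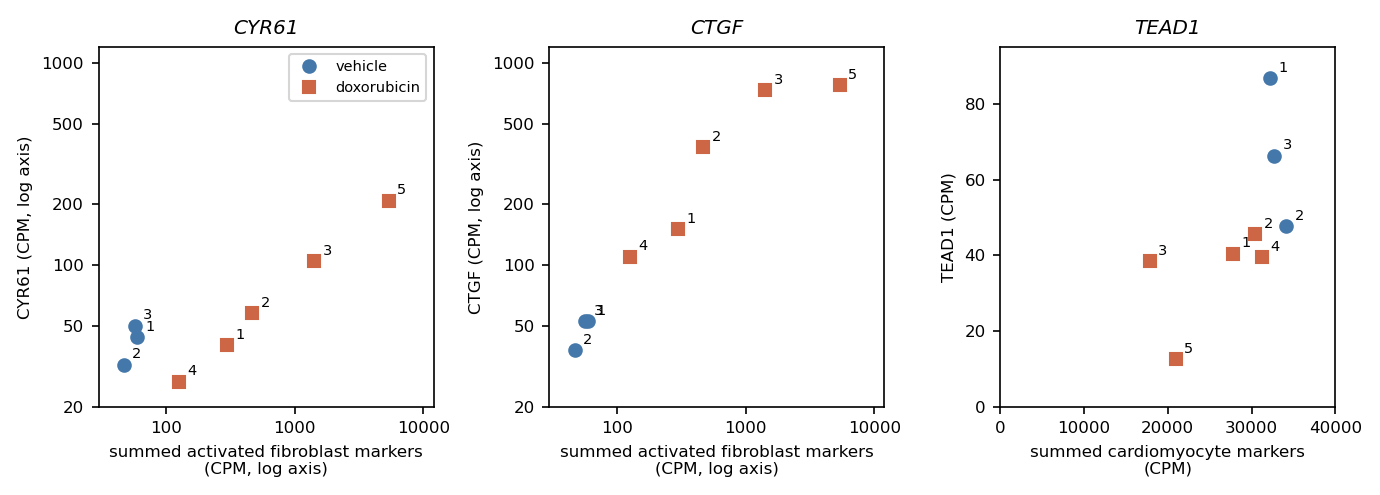
Each point is a library with its replicate number, vehicle as circles and doxorubicin as squares. CYR61 and CTGF (CPM, log axes) are plotted against the summed activated fibroblast markers. There, doxorubicin 4, 1, 2, 3 and 5 follow each other in that order for both genes. TEAD1 is plotted on linear axes against summed cardiomyocyte markers, where doxorubicin 5 has the lowest TEAD1 (12.6 CPM) and doxorubicin 3 the lowest sum (17822 CPM). Single cardiomyocyte markers differed in which of these libraries was lowest.

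Per kilobase, the order of the members in vehicle began with CYR61 at 21.8 ± 4.73 and AMOTL2 at 19.1 ± 0.569 CPM per kb, which did not differ beyond their spread. YAP1 (16.3 ± 0.197), TEAD2 (15.9 ± 3.73), WWTR1 (13.4 ± 2.51) and LATS2 (12.8 ± 0.650) came next. AMOTL2 and YAP1 differed by more than their SDs, and YAP1, TEAD2, WWTR1 and LATS2 each overlapped the next in this order. TEAD4 (8.12 ± 1.68), TEAD3 (7.81 ± 1.76), TEAD1 (5.93 ± 1.73) and LATS1 (4.72 ± 1.25) were lower than LATS2 by more than the SDs, and each of them overlapped its neighbour (SD, n = 3). After doxorubicin CYR61 (45.3 ± 38.1) and AMOTL2 (23.8 ± 3.63) were again highest, and TEAD1 (3.13 ± 1.15) and LATS1 (3.53 ± 0.330) lowest (CPM per kb, SD, n = 5). The order rests on the deposited gene lengths, from 1305 bases for TEAD3 to 11289 for TEAD1, whose completeness was not tested. Without division by length, TEAD1 was not the lowest TEAD gene in vehicle. It was at 67.0 ± 19.5 CPM, against 10.2 ± 2.3 for TEAD3 and 12.0 ± 2.47 for TEAD4 (SD, n = 3).

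The choice of scaling and of libraries moved the members' fold changes. With library size only, 4 members passed, all higher (TEAD3, TEAD4, LATS2 and AMOTL2). In that fit 27.4% of tested genes passed as higher and 3.34% as lower (4093 and 499 genes, against 2033 and 1681 with TMM). The median log2 fold change over all tested genes was then 0.38, and that over the members 0.61. Without doxorubicin 5, TEAD1 passed as lower and TEAD3 and LATS2 as higher. No member passed in any other fit that left out 1 library. TEAD1 and LATS1 kept a negative log2 fold change and TEAD3, TEAD4, LATS2, CYR61 and AMOTL2 a positive one in all 18 other fits.

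**Figure D4:**
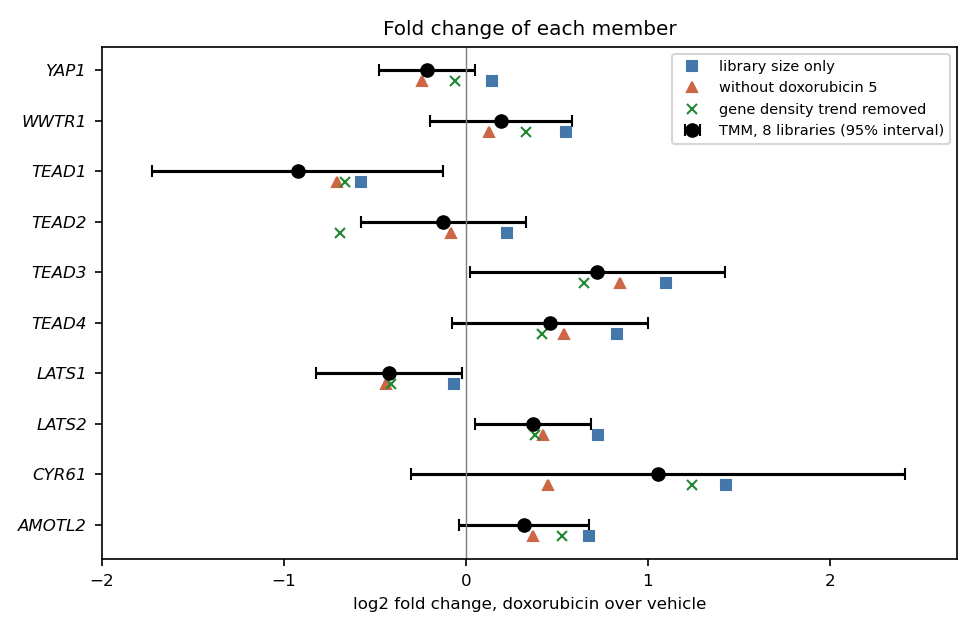
Log2 fold change of each member, doxorubicin over vehicle, in the fit with TMM on 8 libraries (black, with 95% interval) and in 3 alternatives (coloured). The intervals of TEAD1, TEAD3, LATS1 and LATS2 leave out 0 before adjustment, and YAP1 and TEAD2 change sign with library size only.

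The YAP1 pattern over the 8 libraries was most like that of PIP5K1A, a lipid kinase, SRSF4, a splicing factor, and COG3, a Golgi protein. Their root mean square differences from YAP1 were 0.044, 0.047 and 0.052 in centred log2 CPM, against a median of 0.36 over 10060 protein-coding genes. For WWTR1 the nearest were GALNT4 (0.072), PKD2 (0.080) and WIPF1 (0.091), against a median of 0.43. The nearest genes were picked for the smallest differences, so lying below the median was fixed by the choice. A shared pattern beyond this was not tested.

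Other genes of the pathway were taken from 5 lists with 63 genes, of which 58 were tested. Among them 11 rose, 4 fell and 43 did not pass, so 25.9% passed, against 24.9% of all tested genes. Without vehicle 1, 2 or 3, respectively 4, 6 or 3 were called higher (2.16%, 7.14% or 2.19% of all tested genes) and 0, 3 or 1 lower (2.04%, 5.57% or 2.42%). Of 16 genes of the kinase core and its scaffolds, 2 rose, 2 fell and 12 did not pass (median log2 fold change −0.063). MAP4K4, a kinase that acts on LATS in parallel to STK3 and STK4, rose from 66.7 ± 1.22 to 132 ± 14.1 CPM (adjusted p = 0.00596). SAV1, the scaffold of those kinases, fell from 48.0 ± 2.87 to 25.8 ± 4.72 CPM (adjusted p = 0.00981). MOB1B, a coactivator of LATS, fell 1.54-fold (adjusted p = 0.0399), and TAOK2, a kinase upstream of STK3 and STK4, rose 1.50-fold (adjusted p = 0.0497). MAP4K4 passed whichever library was left out, and SAV1 did not without vehicle 1 (adjusted p = 0.0535). MOB1B did not pass without vehicle 1 or 3 or doxorubicin 1, 2 or 3, and, of the fits that leave out 1 library, TAOK2 passed only without doxorubicin 5 (adjusted p up to 0.186 and 0.161). With library size only, without a filter and without the density trend MOB1B did not pass (adjusted p = 0.320, 0.0542 and 0.0939). The TAOK2 fold was 1.04 without the density trend (adjusted p = 0.887), and TAOK2 did not pass without a filter (0.0711) or with TMM factors from which mitochondrial, haemoglobin and top genes were left out (0.0508).

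Among 14 polarity, junction and adaptor genes, 3 rose, 1 fell and 10 did not pass (median 0.17). Thus 28.6% passed, near the 24.9% of all tested genes. DCHS1, a large cadherin that binds FAT4 upstream of the pathway, had 12.5, 14.1 and 14.1 CPM in vehicle, against 40.7, 34.3, 24.5, 47.3 and 37.5 CPM after doxorubicin. It rose 2.71-fold (SE of log2 0.21, adjusted p = 0.00584) and passed whichever library was left out. AJUBA, a LIM protein that restrains LATS, rose 2.00-fold (adjusted p = 0.0143) and SCRIB, a polarity scaffold, 1.80-fold (adjusted p = 0.0112). MPP5 (also called PALS1), a scaffold of tight junctions, fell from 30.4 ± 4.74 to 17.5 ± 3.81 CPM (adjusted p = 0.0214). AJUBA, SCRIB and MPP5 did not pass without vehicle 1 or without vehicle 3 (adjusted p up to 0.0730, 0.0609 and 0.101), nor SCRIB without the density trend or MPP5 with library size only.

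Of 4 VGLL genes, which compete with YAP for TEAD, VGLL1 and VGLL2 had 6 and 12 reads in all and were not tested. VGLL3 had 6.35 ± 1.38 CPM in vehicle against 12.9 ± 7.74 CPM after doxorubicin (fold 2.04, adjusted p = 0.109). Its fold was 2.31 without doxorubicin 1 (adjusted p = 0.0463) and 1.54 without doxorubicin 5 (adjusted p = 0.125). VGLL4 was at 22.8 and 23.8 CPM (adjusted p = 0.829). The list of 14-3-3 proteins, which hold phosphorylated YAP in the cytoplasm, and of genes of YAP degradation had 9 tested members, of which 0 rose, 1 fell and 8 did not pass. Thus 11.1% passed, against 24.9% of all tested genes. YWHAE, the epsilon form of 14-3-3, fell from 559 ± 22.6 to 340 ± 42.9 CPM (adjusted p = 0.0188), but did not pass without any 1 of the vehicle libraries (adjusted p up to 0.0817) or with library size only. BTRC, the ubiquitin ligase subunit that binds phosphorylated YAP, was at 56.7 ± 7.26 and 33.6 ± 9.57 CPM (adjusted p = 0.0511), with no overlap between the groups. Without doxorubicin 5 the BTRC fold was 0.664 and passed (adjusted p = 0.0134), and it also passed without doxorubicin 4, with the filter on CPM, with DESeq2, with voom and without the density trend. YWHAQ (fold 1.57, adjusted p = 0.105) and CSNK1D (fold 1.25, adjusted p = 0.126) did not pass on 8 libraries. Without doxorubicin 5 the YWHAQ fold was 1.30 and passed (adjusted p = 0.0461).

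A list of 19 other genes used as readouts of YAP had 18 tested, of which 6 rose, 0 fell and 12 did not pass. Of all tested genes 13.6% passed as higher and 11.3% as lower, and the median log2 fold change of the list was 0.66. Without vehicle 1, 2 or 3, only 2, 2 or 1 of the 18 rose (2.16%, 7.14% or 2.19% of all tested genes), and without doxorubicin 5 there were 7, with a median of 0.36. CTGF (also called CCN2), a matricellular protein of the same family as CYR61, had 52.9, 38.2 and 52.8 CPM in vehicle, against 152, 383, 733, 110 and 775 CPM in doxorubicin 1 to 5. All doxorubicin libraries were above vehicle, in the same order as CYR61 and both sums of fibroblast markers, and in the reverse order of summed endothelial markers. The part of any of these cells in the CTGF values was not tested. CTGF rose 8.97-fold (SE of log2 0.69, adjusted p = 0.0142). FJX1, a secreted relative of a kinase that acts on FAT and DCHS cadherins, rose from 6.78 ± 0.554 to 20.2 ± 3.48 CPM (adjusted p = 0.00437) and passed whichever library was left out. ARHGEF17 rose 1.77-fold (adjusted p = 0.0102) and IGFBP3, which binds insulin-like growth factors, 3.15-fold (adjusted p = 0.0214). CCDC80, a matrix protein, and TGFB2, a ligand of the TGF-beta family, rose 4.77-fold and 2.67-fold (adjusted p = 0.0278 and 0.0253). With voom the folds of CTGF, IGFBP3 and CCDC80 were 5.24, 2.07 and 2.33, all past the threshold. ANKRD1, a cardiac stress gene often used to read YAP in heart, was at 1836 ± 64.9 and 1952 ± 532 CPM (adjusted p = 0.823), and its sign turned without doxorubicin 2 or without doxorubicin 3. CCDC80, TGFB2 and ANKRD1 were chosen after their values were seen. CTGF, IGFBP3, CCDC80 and TGFB2 did not pass without any 1 of the vehicle libraries (adjusted p up to 0.0647, 0.0909, 0.0994 and 0.0960), nor TGFB2 without doxorubicin 3, CCDC80 without a filter or ARHGEF17 without vehicle 3 (0.0580).

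**Figure D5:**
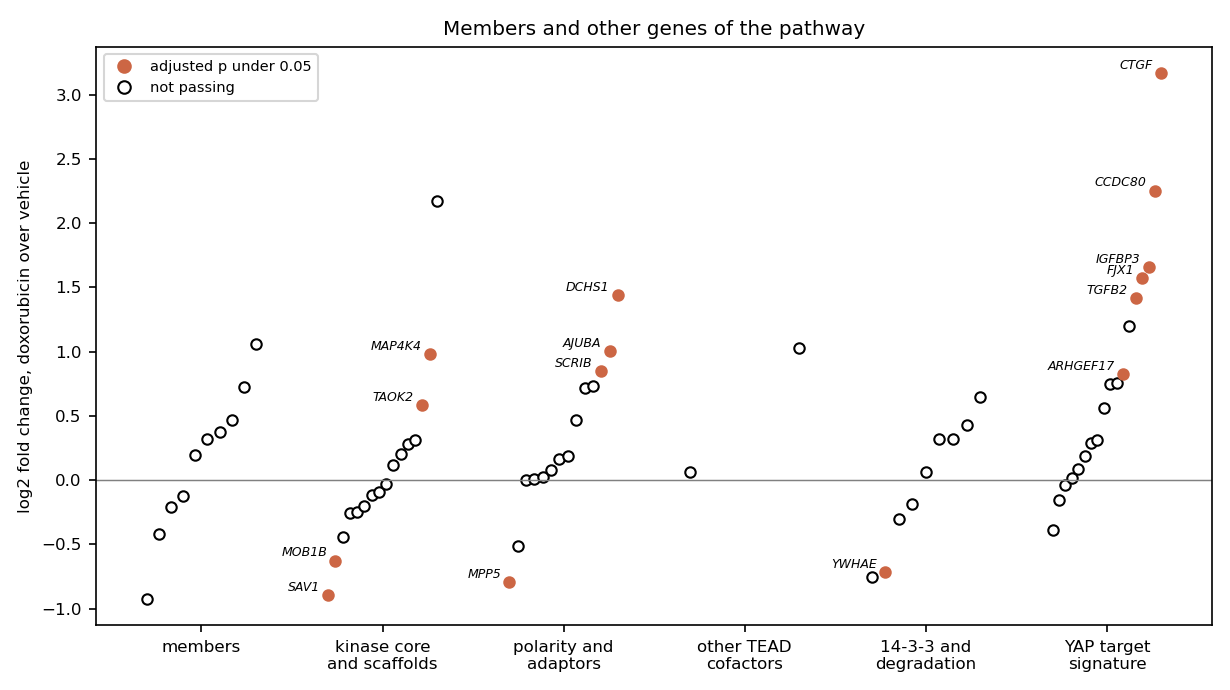
Log2 fold change of the 10 members and of the tested genes of 5 lists, 1 point per gene. Filled points passed an adjusted p of 0.05 and are named, and open points did not. The members are all open, and in the list of YAP targets the 6 filled points are all above 0, with CTGF at 3.17.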

How the data were processed

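RNA of heart tissue was sequenced in 8 libraries, 3 vehicle and 5 doxorubicin, from libraries made with a SMARTER mRNA kit, per the labels' protocols. The authors deposited raw counts per gene with a gene length, and the sources used here name no aligner, counting tool or strand setting. Coordinates are those of the table and equal RefSeq's on Sscrofa11.1 for all 10 members. Genes were filtered with filterByExpr (minimum count 10, minimum total 15) and scaled by TMM, and doxorubicin was tested against vehicle with edgeR 4.0.16 (R 4.3.3) by the robust two-sided quasi-likelihood test, Benjamini-Hochberg adjusted over 14938 genes, threshold 0.05. The fit was tested on simulated data. Intervals of 95% are unadjusted and take the SE from the F statistic. CPM per kb divide by the deposited gene length. Named were all members, up to 4 genes with the smallest p per list, the 3 protein-coding genes nearest to YAP1 and to WWTR1 (at least 5 CPM) and the first markers of cell type lists. Members and lists were chosen with earlier results of these data known. Alternatives were RLE, library size only, TMM factors that skip the top 20 genes by abundance and those of mitochondrial DNA and haemoglobin, no filter, CPM above 1 in 3 libraries, voom with library quality weights (limma 3.58.1), DESeq2 1.42.0, removal of the gene density trend (500 kb, lowess span 0.3), a replicate block and leaving out each library. The block was also set against the same 6 libraries without it, which was chosen after seeing the data. Figures used matplotlib 3.10.9.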

Additional observations from a re-analysis of the deposited data

Results flagged for a closer look

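In 39 sets of 5 doxorubicin values, 6 had 1 library far from the other 4 by Dixon's test at 95%, where chance gives about 1 in 20 in independent sets. These sets share the same 5 libraries, so the count cannot be set against that rate. In doxorubicin 5, YAP1 (66.2 CPM), SCRIB (35.3 CPM) and YWHAQ (214 CPM) were far above and TEAD1 (12.6 CPM) far below the other libraries. In doxorubicin 2, LATS1 (21.9 CPM) was far below them. In doxorubicin 3, the TEAD3 share of TEAD reads per kb (41.9%) was far above them. The value of CYR61 in doxorubicin 5 was the highest of all but did not meet this limit.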

How the results depend on the processing

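Calls among all genes numbered 3714, 8087 with voom, and 649 to 4737 when 1 library was left out. Vehicle 1 (649), vehicle 3 (712) and vehicle 2 (1969) lowered the count most. Members called numbered 0, against 2 with DESeq2 (1 higher), 2 without the density trend (1 higher), 4 with library size only (4 higher), 7 with voom (4 higher) and 0 to 3 (0 to 2 higher) when 1 library was left out. With the replicate block on 6 libraries 1 member passed (TEAD4, higher, adjusted p = 0.0472; 25.3% of genes passed), and on the same 6 libraries without it 3 did (2 higher; 28.3%). MOB1B did not pass with the block (0.101), nor on those libraries without it. Deviations of same-numbered libraries from their group means correlated at 0.0425, 0.00205 and −0.00312, which gives no sign that the numbers pair the samples. Pairing is not excluded, since no samples known to be paired show what value it would give. None of the 3 vehicle libraries correlated best with its own number. Other pathway genes called higher numbered 11, against 23 with library size only, 21 with voom and 3 to 15 when 1 library was left out, and those called lower 4, against 1, 11 and 0 to 6. Signs turned for YAP1 with library size only (0.14), WWTR1 with voom (−0.034), TEAD2 with library size only (0.23), with voom (0.050) and when 1 library was left out (−0.24 to 0.082, positive without vehicle 2), VGLL4 with voom (−0.042) and when 1 library was left out (−0.017 to 0.17), CSNK1D without the density trend (−0.16) and ANKRD1 when 1 library was left out (−0.016 to 0.20). The cause was not tested. Adding 0.5 reads moved no within-library ratio by more than its SD. TEAD3 had 111 to 180 reads in vehicle.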
